A study of Mus musculus with 4 samples.

Results

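Among the myocytes of the sinoatrial node (SAN) region of the embryonic mouse heart, 1434 cells carried at least 2 UMIs (unique molecular identifiers, each counted as 1 captured transcript) of Bmp10 and the light chains of atrial muscle. They are called Bmp10-positive cells here. They were chosen by counts: at least 500 genes, a muscle score of at least 1.5 (the mean over Tnnt2, Myh6, Ttn, Actn2 and Ryr2 of the natural log of 1 plus UMIs per 10000), more Myl7 than Myl2 UMIs, UMIs of fewer than 2 of the node genes Shox2, Isl1, Tbx3 and Hcn4, and at least 2 Bmp10 UMIs. They were 46.8% of the 3064 atrial-type myocytes that passed the other rules and 24.2% of the 5934 cells with at least 500 genes in that library. The whole series held 22805 barcodes, of which 21035 had at least 500 genes. The cells they are compared with are the 1173 atrial-type myocytes of the same library with no Bmp10 UMI, called Bmp10-negative cells. The 457 cells with exactly 1 Bmp10 UMI belong to neither group.

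All cells came from wild-type CD1 embryos at E16.5, with no treatment and no transgene. Regions around the conduction system were microdissected and sequenced as 4 libraries of 3′ transcript ends: Zone I (SAN region), Zone II (AVN/His region, around the atrioventricular node and His bundle) and Zone III (BB/PF region, bundle branches and Purkinje fibers), taken once from the left ventricle and once from the right. With 1 library for each dissected piece, no comparison below has replicates and none has a p-value. Intervals in parentheses are 95% exact intervals that cover counting error only. How many embryos were pooled is not given in the sources used here.

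Bmp10 encodes a secreted ligand of the bone morphogenetic protein (BMP) family. It is made by heart muscle, first in the trabeculae of the embryonic ventricle, where it is needed for growth of the wall, and later mainly in the atria. The ligand is released from its precursor by furin-type convertases and signals through type I and type II receptor kinases to Smad proteins, on myocytes and, through Acvrl1, on endothelium. Atrial myocytes are also an endocrine tissue: they store the natriuretic peptide Nppa in granules and release it when stretched.

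The rule itself fixed the Bmp10 counts, which are therefore a description. A Bmp10-positive cell held a median of 4 Bmp10 UMIs, with quartiles of 2 and 8 and a highest count of 40. Together these cells held 8578 of the 9218 Bmp10 UMIs of Zone I (93.1%) and 86.5% of those in all 4 libraries. Their summed level was 589.5 CPM (UMIs of a gene per 1000000 UMIs of the same cells; 577.1 to 602.2). In 374 of them the count was 2 and in 238 it was 3. Cells with 1 Bmp10 UMI, just outside the threshold, did not keep 1 place between the groups. For Mest (741 CPM) they were nearer the negative cells, for Pvalb (22.6 CPM) beside the positive cells, and for Nppb (401.8 CPM) below both. The level of Nppa was 15563 CPM in cells with 1 Bmp10 UMI, 18220 CPM with 2 and 24654 CPM with 3.

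A low background of Bmp10 was present in other cells, and whether it came from free RNA, doublets or mixed barcodes was not tested. A UMI of Bmp10 was found in 5.07% of endothelial cells (3.61 to 6.89), 5.43% of fibroblasts (4.45 to 6.55) and 3.74% of macrophages (1.52 to 7.56), cell types not known to make it, at median depths of 8882, 7510 and 5762 UMIs. At least 2 UMIs were found in 0.133%, 0.372% and 0% of them, and their levels were 4.39, 6.44 and 5.21 CPM. These kinds are cells under the muscle score with at least 3 markers of the type, and they overlap: of 2528 cells in at least 1 of them, 285 were in more than 1. In cells of 1 kind only, the shares with a Bmp10 UMI were 3.28%, 5.07% and 3.21%. The 166 myocytes with 2 or more node genes, which the rule left out, held a Bmp10 UMI in 6.02% (2.93 to 10.8), a share within the counting error of that background. Their level of 16.9 CPM (11.3 to 24.5) and their share of 2.41% with at least 2 UMIs, 4 cells, were above it. Their Nppa level was 3026 CPM, against 30288 CPM in the Bmp10-positive cells.

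**Figure D1:**
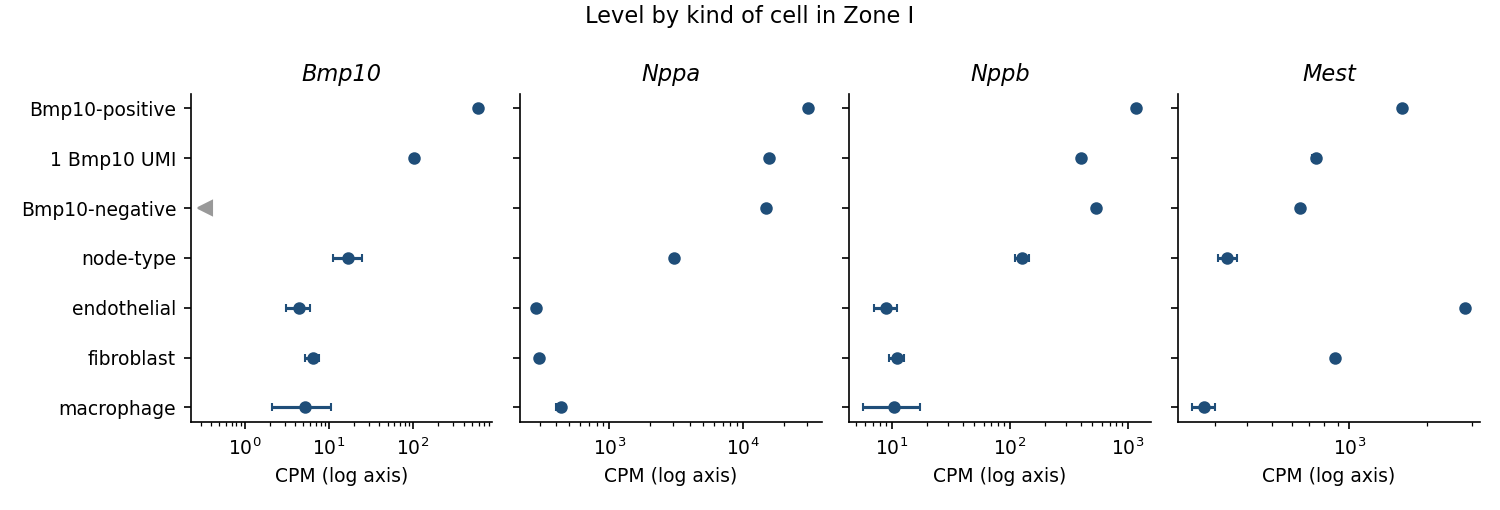
Summed level (CPM, log axes with a separate range for each gene) of Bmp10, Nppa, Nppb and Mest in 7 kinds of cell of Zone I. Points are summed levels and bars 95% counting intervals, many smaller than the point; the grey triangle is the upper limit of 0.335 CPM for the Bmp10-negative cells, which have no Bmp10 UMI by choice. The endothelial, fibroblast and macrophage kinds share 285 cells. Nppa and Nppb were highest in the Bmp10-positive cells, whereas Mest was higher in endothelial cells (2805 CPM).

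Genes the rule did not use also marked these cells as atrial muscle. Myl4, the atrial essential light chain, stood at 13951 CPM in the Bmp10-positive cells and 13808 CPM in the negative cells, a ratio of 1.01 (1.004 to 1.017). Sln, the atrial inhibitor of the calcium pump, stood at 6944 and 5060 CPM, a ratio of 1.37 (1.36 to 1.39). Myl7, which the rule used, stood at 29170 and 31198 CPM. Myl2, which the rule also used, had a UMI in 87 of the 1434 cells (6.07%) and in 7.16% of the negative cells.

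The Bmp10-positive cells were slightly deeper, with a median of 9915 UMIs and 2752 genes against 8881 UMIs and 2615 genes, and the threshold on Bmp10 UMIs took no account of depth. Their median share of mitochondrial transcripts was 11.8% against 9.34%, and that of ribosomal protein transcripts 10.97% against 13.48%. Several markers of endothelial cells, fibroblasts or macrophages were found in a small share of both groups. At least 3 fibroblast markers were found in 7.60% of Bmp10-positive and 6.99% of negative cells, 3 or more endothelial markers in 1.88% and 2.73%, and 3 or more macrophage markers in 0.558% and 0.512%. Over 1% hemoglobin transcripts was found in 2.72% and 1.28%. The summed level of 4 erythroid markers was 4322 CPM in Bmp10-positive and 3251 CPM in negative cells, all 4 being higher. Barcodes of 31 Bmp10-positive cells were also found in another library. The part of depth, RNA quality or other cells in the results was not tested; ratios without such cells are given beside the genes they bear on.

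Bmp10-positive and Bmp10-negative cells were then compared over 5179 genes with a mean level of at least 20 CPM. Because both groups were cut by a gene measured in the same cells, the ratios describe how these cells differ and carry no test. Most genes hardly differed: the ratio of positive to negative CPM lay between 0.785 and 1.24 for the 5th to the 95th percentile, and the median log2 ratio was -0.04. More genes thus had a ratio below 1 than above it. A ratio of at least 1.5 was found for 26 genes (0.502% of those compared) and a level at least 1.5-fold lower for 48 (0.927%). At 2-fold, the counts were 6 higher and 8 lower. The genes with the largest ratios included the natriuretic peptides and the enzymes that process peptide hormones, and the smallest included the BMP target Id2 and the Wnt inhibitor Sfrp1.

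**Figure D2:**
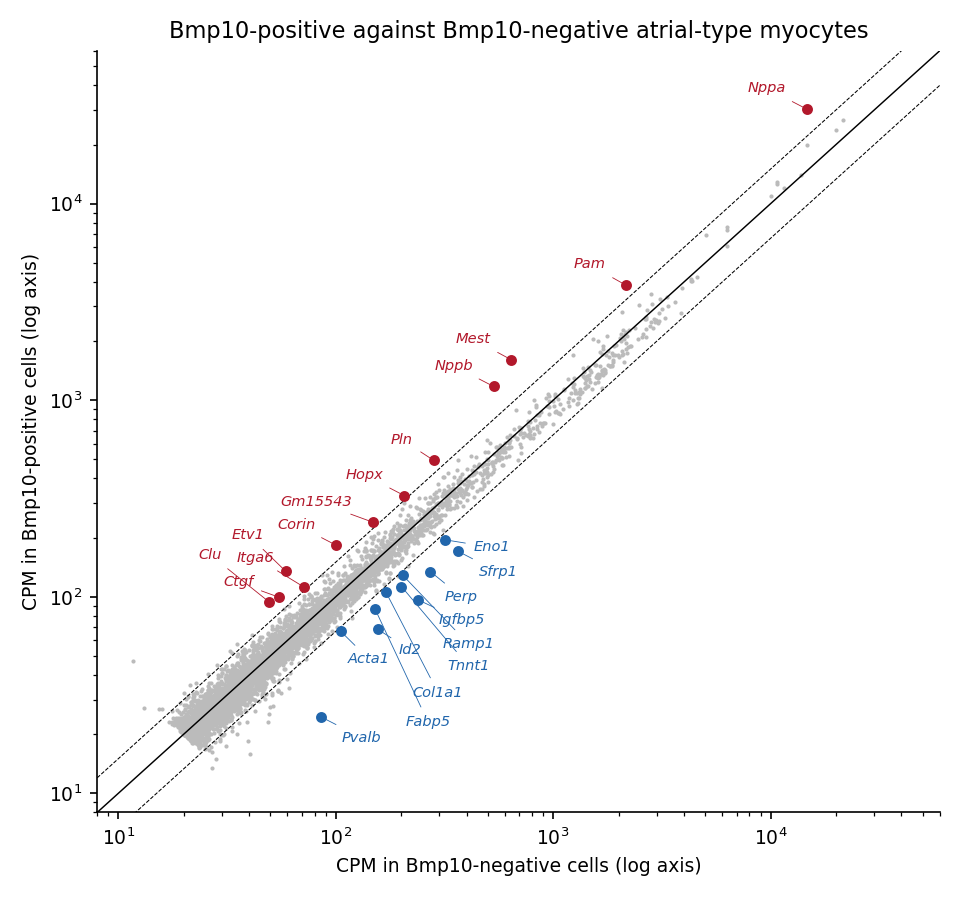
Summed CPM of each of the compared genes in Bmp10-positive cells (vertical) against Bmp10-negative cells (horizontal), both on log axes. The solid line marks equal levels and the dashed lines 1.5-fold; red and blue points are named genes with the largest and the smallest ratios at a mean of at least 50 CPM. Nppa, at 30288 against 14682 CPM, lies above the upper dashed line near the top of the range. Among the blue points, Pvalb, at 24.5 against 85.7 CPM, is the farthest below the line.

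Of 5 genes of the natriuretic system that were compared, 3 were at least 1.5-fold higher, and the median log2 ratio of the 5 was 0.87 against -0.04 for all genes. Nppa, the atrial natriuretic peptide, was at 30288 CPM (30199 to 30378) in the Bmp10-positive cells and at 14682 CPM (14610 to 14754) in the negative cells, a ratio of 2.06 (2.05 to 2.08). Per cell, it held a median of 282 UMIs per 10000 in the positive cells, with a 5th percentile of 13.6 and a 95th of 717. In the negative cells, the median was 75.5, with percentiles of 1.30 and 488. The groups thus overlapped broadly, and nearly every cell had Nppa UMIs (99.9% against 96.4%). The Nppa level in endothelial cells, fibroblasts and macrophages was far below both, at 282 to 432 CPM.

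Nppb, the related peptide encoded beside Nppa on chromosome 4 (13.5 kb apart in GENCODE M21, build GRCm38), was at 1175 CPM against 532.9 CPM, a ratio of 2.21 (2.14 to 2.27). It was found in 81.7% of Bmp10-positive and 51.7% of negative cells, and in 74.2% and 46.6% after every cell was thinned to 5000 UMIs. Corin, the membrane protease that cleaves the Nppa precursor, was at 183.1 against 100.4 CPM, a ratio of 1.82 (1.70 to 1.96). Pam, which amidates peptide hormones and is the main membrane protein of atrial granules, was at 3853 against 2159 CPM, a ratio of 1.79 (1.76 to 1.81). The receptor Npr1 stood at 20.1 and 20.2 CPM. Furin, the convertase that also cleaves BMP precursors, stood at 45.0 and 48.5 CPM, a ratio of 0.927 (0.825 to 1.04).

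Within the Bmp10-positive cells, thinned to 5000 UMIs, the variance of Nppa over cells was 81.2 times its mean, against 12.7 times for Nppb. This measure grows with the level, and Nppa also had the higher mean, 153.6 UMIs against 5.93. Its level was higher in each next band of Bmp10 count. In cells with 0, 1, 2 to 4, 5 to 9 and 10 or more Bmp10 UMIs, Nppa stood at 14682, 15563, 21732, 35656 and 44420 CPM. Nppb was at 532.9, 401.8, 593.7, 1277 and 2515 CPM, so the lowest level was in cells with 1 Bmp10 UMI. Pam was at 2159, 2614, 3484, 4167 and 4345 CPM. Median depth was also higher in each band, from 8881 to 10944 UMIs, and the ratio of Nppa was 2.17 among cells in the middle range of depth.

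**Figure D3:**
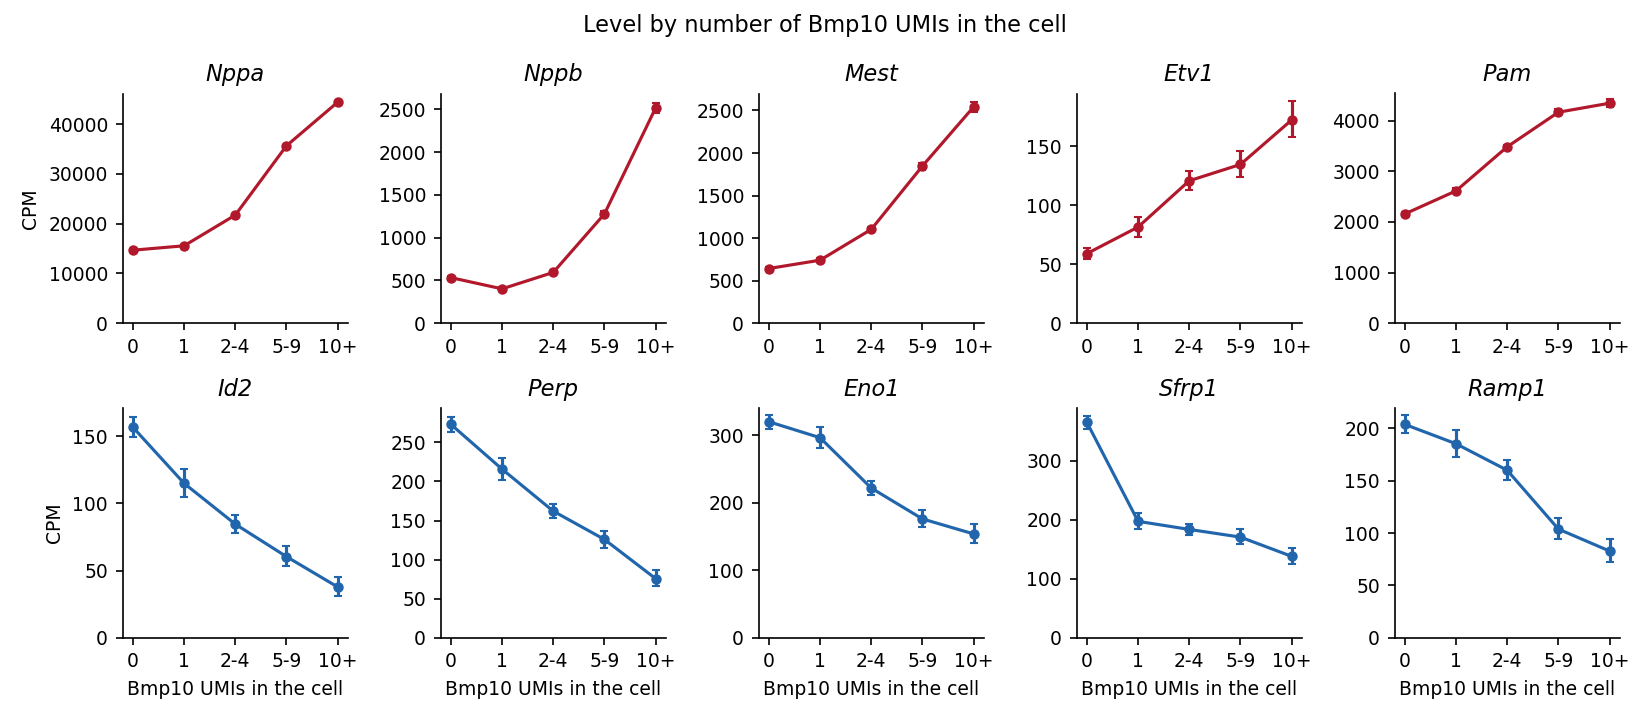
Summed level (CPM, linear axes from 0) of 10 genes in atrial-type myocytes of Zone I by the number of Bmp10 UMIs in the cell (0, 1, 2 to 4, 5 to 9, 10 or more). Bars are 95% counting intervals; red genes had ratios above 1.5 and blue genes below. Nppa, Mest, Etv1 and Pam were higher in each next band, Nppb from 1 UMI on, and Id2, Perp, Eno1, Sfrp1 and Ramp1 were lower in each next band.

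Because Nppa was higher with each next band of Bmp10 count, the 250 bases before each start site are shown, from the RefSeq promoter table of build GRCm38.p6. Both genes are on the plus strand. Bmp10 spans chr6:87428994-87437677 and Nppa chr4:148000722-148002079 in GENCODE M21. Capitals mark matches on either strand to 4 motifs of cardiac factors. The motif of GATA factors was searched as AGATAA and also, for a different first base, in the form TGATAA, that of Nkx2-5 was searched as CAAGTG and likewise in the form TAAGTG, the T-box motif was searched as AGGTGT, and the motif of TEAD factors was searched as CATTCC. Windows of this length before the 32851 start sites of the table held these motifs, in that order, in 16.6%, 18.4%, 11.8% and 12.6%. No match overlapped another in the windows below.
Bmp10 (chr6:87428744-87428993): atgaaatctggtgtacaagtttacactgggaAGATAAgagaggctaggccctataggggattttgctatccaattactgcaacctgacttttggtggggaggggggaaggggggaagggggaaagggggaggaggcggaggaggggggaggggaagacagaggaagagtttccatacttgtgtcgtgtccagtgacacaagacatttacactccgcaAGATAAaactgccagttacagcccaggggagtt
Nppa (chr4:148000472-148000721): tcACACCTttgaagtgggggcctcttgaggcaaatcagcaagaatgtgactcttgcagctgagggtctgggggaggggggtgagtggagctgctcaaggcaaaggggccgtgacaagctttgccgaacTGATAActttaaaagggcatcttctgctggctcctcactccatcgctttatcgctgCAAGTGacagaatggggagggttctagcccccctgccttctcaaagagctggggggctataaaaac
The Bmp10 window held 2 GATA matches, starting 219 and 33 bases before the start, and none of the other motifs. The Nppa window held a GATA match 122 bases before the start, an Nkx2-5 match 66 bases before it and a T-box match on the minus strand, 248 bases before it. These are matches of letters and describe neither binding nor a cause.

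Mest had the largest ratio among genes over 50 CPM. This imprinted gene, expressed from the paternal copy, encodes a hydrolase-like protein of the endoplasmic reticulum. It stood at 1605 CPM (1585 to 1626) in the Bmp10-positive cells and 643.1 CPM (628.2 to 658.3) in the negative cells, a ratio of 2.50 (2.43 to 2.56). The share of cells with a Mest UMI was 95.2% against 75.5%. Over the Bmp10 bands, Mest was at 643.1, 741, 1103, 1847 and 2542 CPM. Endothelial cells held more of it (2805 CPM, and 3102 CPM in those with markers of no other kind), and the ratio was 2.66 without cells that carried hemoglobin or other markers.

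Etv1, an ETS transcription factor of fast-conducting atrial and Purkinje myocytes, was at 134.8 against 58.9 CPM, a ratio of 2.29 (2.09 to 2.50). It was found in 64.2% and 35.4% of cells. Hopx, a homeodomain protein without DNA binding of its own, was at 327.6 against 206.4 CPM (ratio 1.59), Itga6, a laminin-binding integrin subunit, at 112.2 against 71.4 CPM (1.57), and the gene model Gm15543 at 239.8 against 148 CPM (1.62). Pln, the phospholamban that restrains the calcium pump, was at 494.8 against 282.1 CPM, a ratio of 1.754 (1.681 to 1.83). These 5 genes, with Nppa, Mest, Corin and Pam, were higher in each next band of Bmp10 count. Clu and Ctgf, also with large ratios, were not. Clu, a secreted chaperone (94.0 against 49.5 CPM), and Ctgf, a matricellular growth regulator (99.7 against 54.6 CPM), were lower in cells with 1 Bmp10 UMI, at 44.3 and 34.8 CPM, and highest in cells with 10 or more, at 165.1 and 218.8 CPM.

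Below 50 CPM, and named after their values were seen, the largest ratio of all was that of Npy1r, the receptor for the sympathetic cotransmitter neuropeptide Y, at 47.4 against 11.6 CPM, a ratio of 4.08 (3.37 to 4.96). Dusp18, a phosphatase, followed at 27.1 against 13.1 CPM (ratio 2.08). The guidance cue Ntn1 was at 35.6 against 21.3 CPM (1.67), and its receptor Unc5b was at 33.1 against 54.2 CPM (0.610). The ratio of Unc5b was 0.760 among cells with no node gene UMI.

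Among genes over 50 CPM, the smallest ratio was that of Pvalb, a calcium buffer, which was at 24.5 against 85.7 CPM, a ratio of 0.285 (0.252 to 0.323). Igfbp5, which binds insulin-like growth factors, was at 96.6 against 238.8 CPM (0.405). Its level was 625 CPM in the negative cells with a UMI of the node gene Shox2 and 139.1 CPM in those without, and its ratio was 0.716 among cells with no node gene UMI. Sfrp1, a secreted Wnt inhibitor, was at 170.6 against 364.8 CPM (0.468), and Perp, a membrane protein of desmosomes, at 134.3 against 272.9 CPM (0.492). Tnnt1, the troponin T of slow skeletal muscle, was at 112.8 against 200.7 CPM (0.562), Acta1, skeletal actin, at 66.8 against 105.4 CPM (0.634), and Ramp1, a subunit of receptors for calcitonin-family peptides, at 128.5 against 203.9 CPM (0.630). Perp, Sfrp1, Tnnt1 and Ramp1 were lower in each next band of Bmp10 count; Pvalb and Igfbp5 were already lower in cells with 1 Bmp10 UMI, at 22.6 and 117.6 CPM, and had no order beyond.

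Col1a1, a fibroblast collagen, was at 105.7 against 170.2 CPM, a ratio of 0.621, and was the only one of 4 compared fibroblast markers past 1.5-fold, all 4 being lower. Without the cells that held hemoglobin or other markers its ratio was 0.966. The ratio of Acta1 was 0.881 among cells in the middle range of depth. The summed level of 7 fibroblast markers was 388.8 CPM in Bmp10-positive and 568 CPM in negative cells, and that of 7 macrophage markers 23.2 and 45.0 CPM.

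Few BMP pathway genes were high enough to be compared, and most of those differed by less than 1.5-fold. Of 22 ligands of the BMP and TGF-beta family, Bmp10 aside, 2 reached the level to be compared: Bmp7 at 54.8 and 59.0 CPM (ratio 0.929, 0.836 to 1.03) and Tgfb2 at 44.2 and 47.0 CPM (0.941, 0.837 to 1.06). Bmp2, which marks the atrioventricular canal, was under the 20 CPM minimum, at 2.96 against 18.6 CPM, a ratio of 0.159 (0.112 to 0.221). Bmp4 and Bmp5 were at 2.41 and 9.55 CPM in the Bmp10-positive cells, and no UMI of Bmp6 was found in either group. Of the 15 listed receptors found in the gene table, 4 could be compared, and none passed 1.5-fold in either direction. Bmpr1a was at 65.1 and 62.5 CPM (1.04, 0.943 to 1.15) and Bmpr2 at 74.7 and 71.3 CPM (1.05, 0.955 to 1.15). Acvrl1, the endothelial receptor of Bmp10, held 21 and 14 UMIs in all. Hfe2, the older symbol of the BMP coreceptor hemojuvelin, named after its value was seen, was at 28.7 against 19.2 CPM, a ratio of 1.499 (1.267 to 1.777).

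Of 9 signaling and target genes that were compared, 1 was at least 1.5-fold lower and none higher. That gene was Id2, a helix-loop-helix inhibitor induced by BMP in many cells and also a gene of conduction tissue, at 68.3 CPM (33.3% of cells) against 156.6 CPM (49.3%), a ratio of 0.436 (0.403 to 0.471). Its level over the Bmp10 bands was 156.6, 114.9, 84.6, 60.4 and 37.8 CPM. Id3 was at 41.1 against 61.4 CPM (0.669) and Bambi, a decoy receptor, at 59.1 against 74.2 CPM (0.797). Without cells that held hemoglobin or other markers, the ratios of Id2, Id3 and Bambi were 0.377, 0.787 and 0.809. Smad4 was at 42.9 and 38.8 CPM (1.11, 0.976 to 1.254) and Smad5 at 35.4 and 33.7 CPM (1.05, 0.917 to 1.20). Of 4 compared extracellular or intracellular inhibitors none passed 1.5-fold; Tcap, a titin-binding protein that also binds the Bmp10 precursor, was at 218.1 against 313.2 CPM (0.697) and was lower in each next band.

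The median log2 ratio of the ion channel genes compared was 0.13, against -0.04 for all genes. Of 34 listed, 11 reached the level to be compared, of which 8 were higher and none passed 1.5-fold. Under that level, and named after their values were seen, Kcnj2, an inward rectifier, was at 14.8 against 6.63 CPM (2.23, 1.70 to 2.95) and Cacna1g, a T-type calcium channel, at 5.36 against 10.8 CPM (0.496, 0.368 to 0.665). Kcnj3, the channel opened by vagal acetylcholine, was at 128.8 against 86.8 CPM (1.48, 1.37 to 1.60), Kcnk3, a leak channel, at 128.8 against 91.1 CPM (1.41), and the muscarinic receptor Chrm2 at 101.1 against 77.1 CPM (1.31). Gja1, connexin 43 of working muscle, was at 300.6 against 206 CPM (1.46, 1.39 to 1.54), and Gja5, connexin 40, at 236.5 against 216.5 CPM (1.09). Among 20 calcium handling genes, 13 were higher and only Pln passed 1.5-fold (median log2 ratio 0.09, against -0.04 for all genes). The pump Atp2a2 was at 3046 against 2482 CPM (1.23) and the calcium store protein Casq2 at 517.8 against 417.6 CPM (1.24).

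Cardiac transcription factors were close to equal, with 10 of 20 higher, 10 lower and none past 1.5-fold (median log2 ratio -0.0037). Nkx2-5 was at 204.5 and 213.9 CPM, Tbx5 at 145.8 and 152 CPM, Tbx20 at 416 and 470.2 CPM and Nr2f2, the regulator of atrial identity, at 91.1 and 88.1 CPM. Of 19 atrial chamber genes, 16 were higher (median log2 ratio 0.13, against -0.04 for all genes) and Nppa, Clu and Pam passed. The ventricular chamber genes had a similar median: of 7 compared, 4 were higher and 3 lower (median log2 ratio 0.12), and Pln passed. Of 10 trabecular genes, 6 were higher and 4 lower (median log2 ratio 0.097). Nppa and Nppb passed, both already counted among the natriuretic genes. Over all genes compared, 0.502% were at least 1.5-fold higher.

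Of 21 glycolytic genes compared, 17 had ratios below 1, with a median log2 ratio of -0.27 against -0.04 for all genes. Of the 21, 2 were at least 1.5-fold lower. These were Eno1, an enolase (194.9 against 319.8 CPM, ratio 0.610, 0.580 to 0.641), and Slc16a3, the lactate exporter (27.6 against 49.8 CPM, 0.555). Ldha was at 965.8 against 1295 CPM (0.746) and Aldoa at 1370 against 1724 CPM (0.795). Nuclear genes of mitochondrial energy metabolism were balanced, 20 of 36 higher and none past 1.5-fold, with a median log2 ratio of 0.01. Fabp5, a fatty acid carrier, was at 86.5 against 151.9 CPM (0.569).

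Transcripts of the G2/M phase were found in fewer Bmp10-positive cells. At least 2 of the 20 listed G2/M genes were found in 28.0% of them and 37.6% of negative cells, and in 21.7% and 32.7% after thinning to 5000 UMIs. Of 14 such genes compared, 11 were lower and 3 higher, none past 1.5-fold (median log2 ratio -0.22, against -0.04 for all genes). Ccnb2 was at 37.9 against 54.7 CPM (0.693) and Ube2c at 131.5 against 170.4 CPM (0.772). Nusap1 was higher, at 34.5 against 26.1 CPM (1.32), as was Cdk1, at 67.4 against 60.0 CPM (1.12). Without the cells with at least 2 G2/M genes, the ratio of Nppa was 2.06, that of Mest 2.42 and that of Eno1 0.655.

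The Bmp10-negative cells were not all alike. Of the 1173, 228 held a UMI of Shox2, a sinus venosus and node factor that the rule counted among the node genes, and 945 held none. Nppa stood at 15106 CPM in the cells with Shox2 and 14572 CPM in those without, against 30288 CPM in the Bmp10-positive cells. Mest stood at 782.1 and 607.3 CPM, against 1605 CPM, and Etv1 at 81.88 and 53.02 CPM, against 134.8 CPM. Nppa, Mest and Etv1 were thus higher in the Bmp10-positive cells than in either kind, as were 11 of the 12 genes with the largest ratios. Ctgf, the exception, was at 120.4 CPM in the cells with Shox2 and 37.6 CPM in those without, against 99.7 CPM. The 12 genes with the smallest ratios were all lower in the Bmp10-positive cells than in either kind, among them Id2 (222.2 and 139.6 CPM in the negative cells), Perp (271.3 and 273.3 CPM) and Col1a1 (304.1 and 135.6 CPM). Both sets of 12 genes were chosen by their ratio to these same negative cells. Most of this order follows from that choice, and it carries no test. Tnnt1 was nearly level with the cells with Shox2 (118.2 CPM, against 112.8 CPM) and was at 222 CPM in those without. Against the cells without Shox2 alone, 40 genes were at least 1.5-fold higher and 39 lower. A Shox2 UMI was found in 19.4% of the negative and 3.21% of the Bmp10-positive cells. UMIs of exactly 1 node gene were found in 261 and 61 cells. With only cells without any node gene UMI in both groups, 39 genes were higher and 37 lower, against 26 and 48 in the main comparison.

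Cells with both Igfbp2 and Ppp1r1b UMIs, genes that mark another atrial population of this library, were 171 (11.9%) of the Bmp10-positive and 195 (16.6%) of the negative cells. Ppp1r1b, a phosphatase inhibitor, was at 34.4 against 61.2 CPM (0.561) and was lower in each next band of Bmp10 count. Igfbp2 was at 72.2 against 80.9 CPM and highest, at 114.2 CPM, in cells with 1 Bmp10 UMI.

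To describe how far the difference reached beyond single genes, each cell's 15 nearest neighbors were found in 10 principal components of 2000 variable genes, without the 12 genes of the rule. Bmp10-positive cells were 55.0% of the 2607 cells used. They made up a mean of 73.8% of the neighbors of a Bmp10-positive cell and 37.1% of those of a negative cell. The share was 65.7%, 79.4% and 88.1% for cells with 2 to 4, 5 to 9 and 10 or more Bmp10 UMIs. Among negative cells it was 26.96% for those with Shox2 UMIs and 39.54% for those without. Depth and cell division also shape such neighbors, and their part was not tested.

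**Figure D4:**
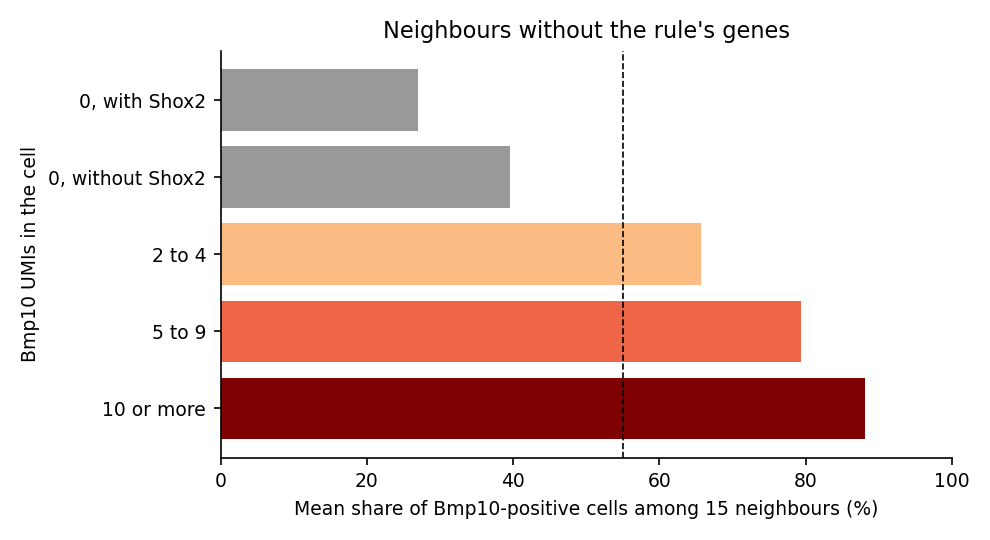
Mean share (%) of Bmp10-positive cells among the 15 nearest neighbors of an atrial-type myocyte of Zone I, by its Bmp10 UMIs and, for cells with none, by the presence of a Shox2 UMI. The dashed line marks the share in the whole pool, 55.0%. Both kinds of negative cells lie below the line (26.96% and 39.54%) and all 3 bands of Bmp10-positive cells above it (65.7% to 88.1%).

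Males and females were both present in the library. Among cells with Xist UMIs and no Y-linked UMI, 123 of them Bmp10-positive, the ratio of Nppa was 2.002, that of Mest 2.19, that of Nppb 2.64 and that of Id2 0.384. Among cells with Y-linked UMIs and no Xist UMI, 948 of them Bmp10-positive, the ratios were 2.06, 2.56, 2.13 and 0.434. All 4 genes thus kept their direction in both. Among the fewer Xist cells, some other ratios past 1.5-fold were nearer 1, such as Gm15543 (1.265), Hopx (1.267), Ramp1 (0.718) and Slc16a3 (0.808). Others were farther from 1, such as Ctgf (2.65), Itga6 (1.99), Igfbp5 (0.163) and Fabp5 (0.390).

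Outside Zone I the same rule found few cells. In Zone II, 153 atrial-type myocytes included 6 Bmp10-positive and 146 negative cells, and the ventricular libraries held 1 such myocyte on the left and 0 on the right, so no comparison was made there. The 6 cells of Zone II held 2 to 5 Bmp10 UMIs and 133, 243, 399, 440, 652 and 1140 Nppa UMIs at depths of 5664 to 14485 UMIs. Their summed levels were 46182 CPM of Nppa, 1920 CPM of Mest and 1843 CPM of Nppb, against 6093, 186.1 and 272.9 CPM in the negative cells of Zone II, where Bmp2 was at 161.7 CPM. With 6 cells these are values of a few cells only.

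Bmp10 was also found in ventricular-type myocytes (Myl2 at or above Myl7), where 26 cells of Zone II, 49 of the left and 47 of the right Zone III held at least 2 UMIs. Compared with ventricular-type cells without Bmp10 in the same library, these cells had features in common with the atrial cells and others that differed. Mest was 9.953-fold, 5.804-fold and 6.045-fold higher in the 3 libraries, Etv1 11.1-fold, 13.3-fold and 13.0-fold, Corin 8.66-fold, 7.15-fold and 6.30-fold, and Nppa 3.115-fold, 14.04-fold and 3.306-fold. Gja5, which was nearly equal in the atrial comparison (1.09), was 34.4-fold, 32.1-fold and 24.3-fold higher. Irx3 was 4.22-fold, 8.03-fold and 13.6-fold higher, and Hey2 had ratios of 0.0366, 0.449 and 0.325. The Zone II ratios of these 2 genes rest on few UMIs in 26 cells, with intervals of 2.08 to 7.67 for Irx3 and 0.000926 to 0.204 for Hey2. Whether these ratios go with Bmp10 or with another kind of ventricular myocyte was not tested. Id2 went the opposite way from the atrial cells, 2.19-fold, 4.97-fold and 4.07-fold higher, as did Igfbp5, at 3.83-fold, 22.9-fold and 10.9-fold. Nppb had ratios of 0.734, 0.935 and 1.19. Of the 12 genes with the largest atrial ratios, 9 had ratios above 1 in all 3 libraries, the exceptions being Nppb, Ctgf and Pln. Of 11 of the genes with the smallest atrial ratios, 2 had ratios below 1 in all 3 libraries and 4 above 1. Over all 5179 genes, 27.2% were above 1 in all 3 libraries and 22.8% below. Differences between the libraries were not tested.

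**Figure D5:**
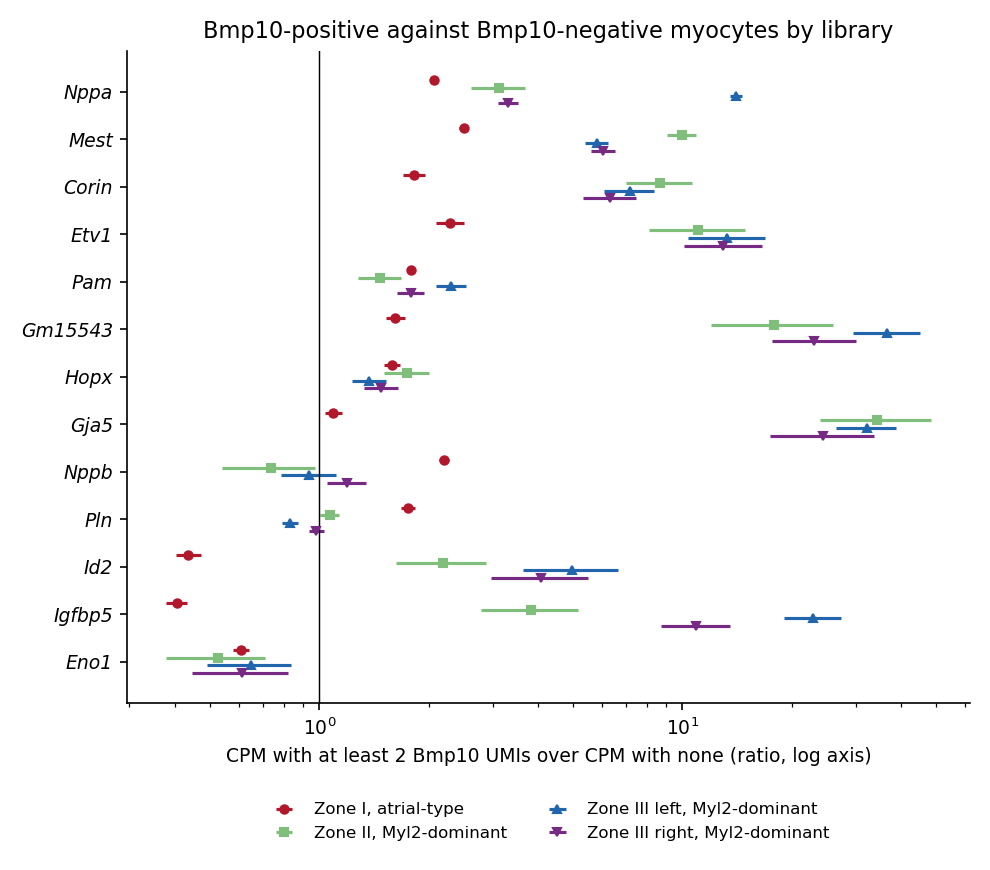
Ratio (log axis) of CPM in cells with at least 2 Bmp10 UMIs over cells with none, for 13 genes, in atrial-type myocytes of Zone I and in Myl2-dominant myocytes of the other 3 libraries. Bars are 95% counting intervals and the vertical line marks a ratio of 1. Mest, Corin, Etv1 and Nppa lie right of the line in all 4, Eno1 left of it in all 4, and Id2 and Igfbp5 lie left in Zone I and right in the others.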

How the data were processed

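The counts deposited by the authors are UMIs per gene and cell, without normalization. Per the study's methods, reads were aligned to mm10 and counted by Cell Ranger with its default settings. The Cell Ranger version and annotation release are not given in the sources used here. Cells were taken by the rule in the opening paragraph. UMIs were summed over the cells of each group and divided by the group's total to give CPM. Intervals are exact Poisson for levels, exact conditional for ratios and exact binomial for shares, at 95%. With 1 library per region there was no test, and a difference of at least 1.5-fold at a mean of at least 20 CPM was the size reported. The ratio calculation was tested on simulated counts. Shares were also computed with each cell thinned to 5000 UMIs, which left out 107 Bmp10-positive and 185 negative shallower cells. Doublets were kept. Scrublet marked 128 of 5934 cells (2.16%), 2.86% of the Bmp10-positive and 3.58% of the negative cells, and leaving them out was an alternative. Barcodes found in 2 or more libraries numbered 269.

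Depth was 49328589 to 58029660 UMIs per library and a median of 8480 to 9272 UMIs per cell, and 58029660 UMIs for Zone I. The planned edgeR test over libraries was not run, because the minimum of 30 cells in both groups was met in Zone I only. Named genes were Bmp10, Nppa and Myl7, BMP pathway and convertase genes of at least 20 CPM, Igfbp2, Ppp1r1b and Tcap, the 12 largest and 12 smallest ratios at a mean of at least 50 CPM, and the 2 highest and 2 lowest of each gene list. Others are said to be chosen later, and listed genes beside a list's count are examples. Results for some genes named by the rule are not reported here. The members, gene lists and comparisons were chosen with earlier results of these data known. Alternatives were other limits on Bmp10, muscle score, genes, node genes and Myl7, equal depth, equal cell weight, other totals, other minimum levels, and leaving out doublets, cycling cells or cells with markers of other types. Intervals came from scipy 1.17.1, neighbors from scikit-learn 1.9.0, doublet scores from scanpy 1.11.5, tables from pandas 2.3.3 and figures from matplotlib 3.10.9, all run in Python 3.11.15 with numpy 2.4.6.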

Additional observations from a re-analysis of the deposited data

Results flagged for a closer look

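Bmp10 transcripts were found in libraries that gave almost no cells by the rule. In ventricular-type myocytes, with Myl2 at or above Myl7, the level was 4.88 CPM (4.12 to 5.74) in Zone II, 7.06 CPM (6.24 to 7.94) in the left and 9.05 CPM (7.97 to 10.2) in the right Zone III, above the level in cells of the same libraries with a muscle score under 0.5, which served as the background. There, 2 UMIs were found in 2579 cells of Zone II (0.0897 CPM) and 0 in 727 and 1364 cells of the left and right Zone III, which allow up to 0.390 and 0.234 CPM. A Bmp10 UMI was found in 2.08%, 2.98% and 3.48% of these myocytes, and the highest counts in a cell were 16, 12 and 21. The highest count in a cell with a muscle score under 0.5 in these 3 libraries was 1. Whether doublets or transcripts from other cells had a part in these counts was not tested.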

How the results depend on the processing

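Over 22 alternatives, 3 of them chosen after the data were seen, 56 genes were followed, 28 of them past 1.5-fold. Of these 28, 26 kept their direction throughout and 13 stayed past 1.5-fold throughout, among them Nppa (ratios of 1.83 to 2.67), Mest (2.05 to 3.31), Nppb (1.748 to 3.35), Etv1 (1.65 to 2.54), Corin, Pam, Pln, Id2 (0.307 to 0.505), Sfrp1, Perp and Pvalb. The 2 that reversed were Ntn1 among Xist cells only (log2 ratio -0.16) and Ctgf against negative cells with Shox2 (-0.27). The cause was not tested. Igfbp2, not past 1.5-fold, had a ratio of 2.07 against the Shox2 cells.

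The number of members was 680 at 5 or more Bmp10 UMIs, 716 in the middle range of depth, 123 among Xist cells and 948 among Y-linked cells, since fewer cells enter by construction. Genes at least 1.5-fold higher and lower numbered 45 and 78 at 3 or more Bmp10 UMIs, 92 and 170 at 5 or more, 41 and 82 in the middle range of depth, 86 and 208 with a minimum of 5 CPM, 13 and 15 with a minimum of 50 CPM, and 210 and 445 among Xist cells. They numbered 78 and 199 against Shox2 cells, and 40 genes were higher against cells without Shox2. Fewer cells widen the counting error, and a higher minimum tests fewer genes. A higher limit on Bmp10 UMIs or another comparison group also changes which cells are compared. The part of each in these counts was not tested. No paired analysis was possible because each region gave 1 library. Without replicate libraries, differences between embryos or dissections cannot be told apart from differences between cells.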

Other observations

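Mest had the largest ratio among genes with a mean of at least 50 CPM, while other imprinted genes had no common direction. Of 16 such genes, listed after the value of Mest was seen, Peg3 (281.4 against 202.8 CPM, ratio 1.39, 1.32 to 1.46) and Zim1 (36.5 against 26.6 CPM, 1.37), which lie in the same imprinted cluster, were higher in the Bmp10-positive cells. Dlk1 (26.2 against 42.6 CPM, 0.615) and Meg3 (77.7 against 119.3 CPM, 0.652), which share another cluster, were lower. H19 was at 1152 against 1402 CPM (0.822), while its neighbor Igf2 was at 866.6 and 883.9 CPM (0.980, 0.955 to 1.01). Igf2r, Gnas, Ndn and Sgce had ratios of 0.967, 1.05, 0.976 and 1.05. Dcn, a fibroblast marker among the 16, was at 57.5 against 74.8 CPM (0.769). The part of other cells in the ratios of these imprinted genes was not tested.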
